A study of Mus musculus with 100 samples.

Results

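The 40 genes described here encode the chaperones of the heat shock response and the chaperones, sensors and degradation factors of the unfolded protein response of the endoplasmic reticulum (ER). They were taken by gene symbol, and they are 40 of 32153 genes with a transcript in the tables. All 40 had a mean of 10 or more normalised reads in each of the 5 tables, so a filter at that level removed none of them. By role they comprise 15 cytosolic chaperones and their regulators, 2 mitochondrial chaperones, 14 ER chaperones and folding enzymes, 6 stress sensors and transcription factors, and 3 genes of ER-associated degradation.

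The study asked by RNA sequencing which genes change in mouse fat when GPS2, a subunit of a nuclear corepressor complex, is lost from adipocytes in obesity and under beta-adrenergic stimulation. Every sample carries the same strain label, floxed Gps2 alleles with Cre driven by the Adipoq promoter of mature adipocytes, and the titles alone divide wild type from knockout. Intra-abdominal fat of mice aged 19 weeks on normal chow makes up CD (3 wild type, 3 knockout). HFD is the same depot at 11 weeks of age on high fat diet, for 4 weeks going by its name (4 and 4). At 19 weeks of age, and after 12 weeks on that diet by their names, whole intra-abdominal fat is in Epi (3 and 3) and adipocytes from that depot in Adipo (3 and 2). BA holds inguinal fat at 8 weeks of age from the beta-adrenergic series (4 and 4), and the sources used here do not name the agent.

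Cytosolic chaperones bind unfolded proteins and hold or refold them, and after heat, oxidative damage or proteasome block the transcription factor HSF1 raises their genes. The ER has its own chaperone system. When unfolded proteins gather there, the sensors IRE1 (gene Ern1), ATF6 and PERK act through the factors XBP1, ATF6 and ATF4 to raise ER chaperones, degradation genes and, under lasting stress, Ddit3 (CHOP). Fat cells secrete much protein, and both systems have been studied in obese fat.

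Reads per replicate over the chosen transcripts ranged from 29340664 to 63231713. Gps2, the targeted gene, overlapped between the groups in every table, with log2 fold changes from 0.01 (HFD) to 0.15 (BA). In CD it lay at 468 to 701 normalised reads in wild type and 553 to 663 in the libraries labelled knockout. The ranges were 355 to 421 and 330 to 424 for HFD, 1061 to 1494 and 1198 to 1387 for Epi, 755 to 851 and 811 to 839 for Adipo, and 221 to 363 and 272 to 381 for BA. Its transcript level therefore does not separate the groups, and "knockout" below means a library labelled so. Among the libraries that stood apart, CD knockout 1 and 2 were nearly alike. The chi-square per degree of freedom between them was 6.80, where other CD pairs of a group had 188 to 1001. These 2, with Epi knockout 2 and 3, held epididymis markers. Epi wild type 1 held the testis marker Prm1 (10481). CD wild type 2 was high in smooth muscle markers and also held the epididymal transcript Crisp1 (43705). BA wild type 2 and knockout 3 were high in skeletal muscle markers (mean log2 levels of 7.66 and 8.15, against 1.73 to 4.33 in the rest of BA). Adipo wild type 3 was the highest of its table in macrophage markers (11.01, against 7.39 to 9.85). All 6 adipocyte markers were measured in every table, with mean log2 levels from 13.81 to 17.60 per replicate.

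The promoters of the 2 genes with the largest changes are shown first, because Hspa1a and Hspa1b fell together, with that of Hspb1, which fell in another table. These are the 250 bases before the start of each gene, 5′ to 3′ along the gene, from RefSeq on GRCm38.p6. Hspa1a lies at chr17:34972157-34972406, minus strand, Hspa1b at chr17:34959239-34959488, minus strand, and Hspb1 at chr5:135887669-135887918, plus strand. Capitals mark paired half-sites of heat shock factor, GAANNTTC or TTCNNGAA.
Hspa1a: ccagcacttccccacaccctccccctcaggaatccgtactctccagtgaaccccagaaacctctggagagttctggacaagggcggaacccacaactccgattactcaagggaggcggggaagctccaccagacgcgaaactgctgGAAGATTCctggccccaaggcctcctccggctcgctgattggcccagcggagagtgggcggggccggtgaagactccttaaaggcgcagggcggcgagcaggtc
Hspa1b: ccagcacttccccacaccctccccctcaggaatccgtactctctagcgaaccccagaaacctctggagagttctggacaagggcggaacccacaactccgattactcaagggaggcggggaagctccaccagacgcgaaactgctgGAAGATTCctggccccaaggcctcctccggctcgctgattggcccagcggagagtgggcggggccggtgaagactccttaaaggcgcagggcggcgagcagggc
Hspb1: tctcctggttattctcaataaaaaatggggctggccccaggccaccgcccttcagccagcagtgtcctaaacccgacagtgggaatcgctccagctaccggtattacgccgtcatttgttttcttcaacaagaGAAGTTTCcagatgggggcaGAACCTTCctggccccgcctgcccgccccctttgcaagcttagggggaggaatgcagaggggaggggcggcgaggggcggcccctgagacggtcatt
The Hspa1a and Hspa1b stretches differ at 3 of 250 bases (98.8% identity), and in both the pair begins 104 bases before the start. In Hspb1 the pairs begin 117 and 97 bases before it. Of 40 genes, 32 had a promoter in the RefSeq table, whose windows run from 250 bases before to 50 bases after the start. The half-site pair, searched on both strands, stood in 9 of these 32 and in 15.1% of all 32851 promoters. The 9 were Hspa1a, Hspa1b, Hsph1, Dnaja1, Hspb1, Hspb8, Bag3, Hspd1 and Hspe1, which makes 7 of the 10 cytosolic genes and both mitochondrial genes with a promoter, and none of 12 ER genes. Where 3 half-sites are asked for, GAA and TTC in alternation with 2 free bases between neighbours (a motif that contains the pair), it stood in 3 of the 32, Hsph1, Hspd1 and Hspe1, against 0.603% of all promoters. Hspd1 and Hspe1 lie head to head on chromosome 1, with starts at 55088024 and 55088132, and share the matched stretch.

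Another motif marked the ER genes. The ER stress element, CCAAT followed after 9 free bases by CCACG, on either strand, stood in 7 of the 12 ER chaperone genes with a promoter, in none of the other 20 genes, and in 0.119% of all promoters. The matches are given as the letters these 7 promoters share. In CD all 14 ER chaperones stood higher in knockout, the 5 with a promoter and no match among them. Capitals mark the fixed bases, and each is written in the motif's own direction.
Hspa5: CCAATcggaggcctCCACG
Hsp90b1, nearer to the start: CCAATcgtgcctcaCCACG
Hsp90b1, farther from the start: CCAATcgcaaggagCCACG
Calr: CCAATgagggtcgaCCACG
Canx: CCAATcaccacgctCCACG
Pdia6: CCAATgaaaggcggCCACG
Creld2: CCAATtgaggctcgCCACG
Dnajc3: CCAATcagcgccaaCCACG
The sites began between 65 bases (Hspa5) and 212 bases (Hsp90b1) before the start. The motif TGACGTGG, bound by XBP1 and ATF6, and the amino acid response motif TGATGNAAT stood in none of the 32, against 0.676% and 0.965% of all promoters. A match is a string of letters and does not show that a factor binds there.

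Across the 5 tables few of these genes passed the test, and those that did differed from table to table. Not passing in a table does not show that a gene was unchanged there. Tests of the difference in genotype effect between tables called members only for Adipo against Epi. Hspa1a and Hspa1b fell in isolated adipocytes, Cryab and Hspb1 fell in fat after 4 weeks of diet, ER chaperones stood higher in 2 of 3 knockout replicates on chow without passing the test, and in Epi and BA none passed. The test was limma over all genes of a table, with Benjamini-Hochberg adjusted p under 0.05 as the threshold, on log2(value + 1). The labels do not tie replicates to separate animals. A p-value here sets the difference between groups against the spread between samples, part of which may be technical. That spread is not shown to be the spread between animals.

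**Figure D1:**
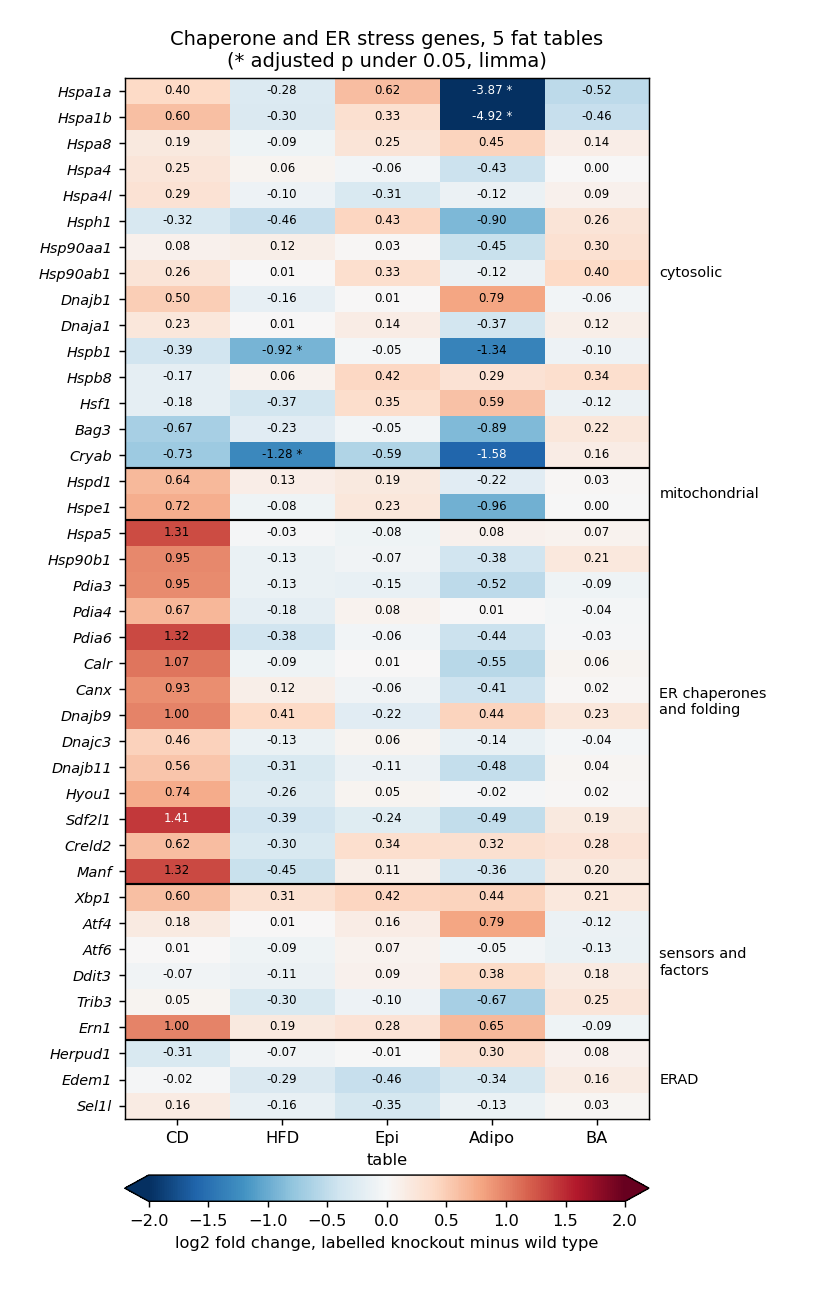
Heat map of the log2 fold change, knockout minus wild type, for the 40 genes (rows, by role) in the 5 tables (columns); a star marks adjusted p under 0.05 (limma). Stars stand on Hspa1a and Hspa1b in Adipo and on Cryab and Hspb1 in HFD, and all 14 ER chaperones are above 0 in CD.

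In isolated adipocytes Hspa1a and Hspa1b, the neighbouring genes for stress-inducible Hsp70, fell in knockout, and none of the 40 genes rose. In Adipo 2 of 40 genes fell, against 0.0922% of all 14105 genes tested that fell and 0.546% that rose. With p under 0.05 before adjustment there were 9 lower and 3 higher of the 40, against 12.8% and 11.4% of all genes. The median log2 fold change of the 40 was -0.28 and that of all genes -0.04. The groups of 3 and 2 did not overlap for 17 genes that were lower and 6 that were higher, against 27.3% and 20.8% of all genes. Without wild type 1 none of the 40 passed, and 3 of all genes did. Without wild type 2 Hspa1a alone passed, among 13 genes in all. Without wild type 3 there were 5 (also Bag3, Hspe1 and Atf4), while calls over all genes went from 0.638% to 5.20%.

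Hspa1a (ENSMUSG00000091971; chromosome 17, 34969190 to 34972156, minus strand, GRCm38, 1 exon) stood at 16096, 15414 and 12962 normalised reads in Adipo wild type and at 1182 and 864 in knockout. Its means were 14824 ± 1649 (SD, n = 3) and 1023 ± 225 (n = 2), 14.5-fold lower in knockout (log2 fold change -3.87 ± 0.19 SE, limma adjusted p = 0.00678). Hspa1b (ENSMUSG00000090877; chromosome 17, 34956436 to 34959238, minus strand, 1 exon) stood at 17449, 16449 and 13766 in wild type and at 768 and 352 in knockout. Every wild-type value of either gene was more than 10 times every knockout value. The means of Hspa1b, 15888 ± 1905 (n = 3) and 560 ± 294 (n = 2), differed 28.4-fold (log2 -4.92 ± 0.33, limma adjusted p = 0.0117). Without wild type 1 the adjusted p of Hspa1a was 0.0538 and that of Hspa1b 0.0837, with log2 fold changes of -3.81 and -4.85, and without wild type 2 that of Hspa1b was 0.0515. The pair share sequence, with 48.6% of the 100-base windows of Hspa1a and 49.9% of those of Hspa1b found in another gene, so how reads divide between them is uncertain. A further 19.0% of the Hspa1a transcript overlaps Gm20481 on the other strand.

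Co-chaperones and other partners of Hsp70 were also lower, without passing the test. Bag3, a co-chaperone that steers Hsp70 clients to autophagy, stood at 7535, 7323 and 7290 in wild type and at 3885 and 4098 in knockout (log2 -0.89 ± 0.13, limma adjusted p = 0.0554). Hsph1, the Hsp110 exchange factor of Hsp70, stood at 3208, 2639 and 5206 against 1514 and 2377 (-0.90 ± 0.34, limma adjusted p = 0.185). The groups did not overlap for either gene, and the wild-type values of Bag3 lay within a narrow band. Without wild type 3, Bag3 passed (adjusted p = 0.0285). Dnajb1, an Hsp40 co-chaperone and heat shock target, went the other way, at 16183, 11657 and 8194 in wild type and 15362 and 25965 in knockout (0.79 ± 0.36, limma adjusted p = 0.239), with overlap. Hsf1, the master factor, stood at 576, 531 and 479 against 687 and 913 (0.59 ± 0.18, limma adjusted p = 0.136).

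Of the 3 small heat shock proteins, which hold unfolded proteins without ATP, Hspb1 and Cryab stood lower and Hspb8 higher, and none of them passed. Hspb1 stood at 5754, 5207 and 5616 in wild type and at 1637 and 2903 in knockout (-1.34 ± 0.25, limma adjusted p = 0.0786). Cryab, alpha-B crystallin, stood at 9464, 8226 and 14914 against 2114 and 5821 (-1.58 ± 0.47, limma adjusted p = 0.136). Neither gene's groups overlapped, and knockout 1 was the lowest of the 5 libraries for both. Hspb8 stood at 10856, 10917 and 8885 against 11415 and 13595 (0.29 ± 0.18, limma adjusted p = 0.343). Hspe1, the mitochondrial Hsp10 lid, stood at 2745, 2610 and 2741 against 1624 and 1189 (-0.96 ± 0.16, limma adjusted p = 0.0673), and without wild type 3 it passed (adjusted p = 0.0406). Its partner Hspd1, mitochondrial Hsp60, differed less, at -0.22 ± 0.14. Of the 15 cytosolic genes 11 were lower and 4 higher, where 53.3% of all genes were lower, with a median log2 fold change of -0.43.

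The constitutive chaperones Hspa8 and Hsp90ab1 did not pass. Hspa8, the constitutive Hsp70, stood at 20460, 20911 and 28728 in Adipo wild type and at 29912 and 33056 in knockout (0.45 ± 0.21, limma adjusted p = 0.248). Hsp90ab1, constitutive Hsp90, had log2 -0.12 ± 0.17 and inducible Hsp90aa1 -0.45 ± 0.17 (limma adjusted p = 0.174 for the latter). Reads of Hspa8 and Hsp90aa1 may be shared with copies, since 62.8% and 47.5% of their 100-base windows stand in other genes.

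**Figure D2:**
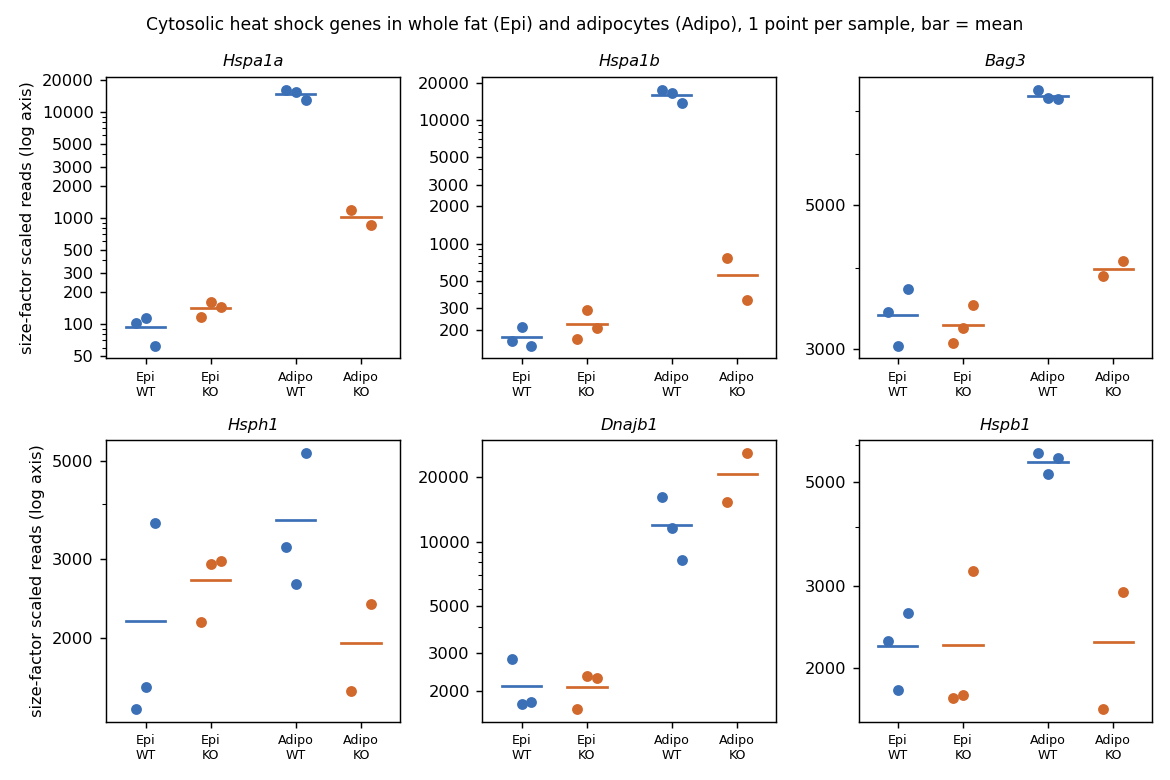
Normalised reads of 6 heat shock genes on a log axis in each replicate of whole fat (Epi) and isolated adipocytes (Adipo), wild type and knockout. Hspa1a and Hspa1b reach 12962 to 17449 in adipocyte wild type, 352 to 1182 in adipocyte knockout and at most 289 in whole fat of either genotype.

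The ER side of the adipocyte table showed no called gene. Hspa5 (BiP), the main ER Hsp70 and a common reporter of ER stress, stood at 18198, 17544 and 29848 in wild type and at 21127 and 23836 in knockout (0.08 ± 0.27, limma adjusted p = 0.872). Hsp90b1 (Grp94) stood at 14004, 13647 and 20852 against 12523 and 11848 (-0.38 ± 0.23, limma adjusted p = 0.343). Wild type 3 was the highest of the 5 libraries for both, and the groups overlapped for Hspa5 only. Of the 14 ER chaperones 10 were lower and 4 higher, from -0.55 (Calr) to 0.44 (Dnajb9), and none had unadjusted p under 0.05.

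Among the factors, Atf4, which drives amino acid and stress genes, stood at 4118, 3741 and 4041 in wild type and at 7311 and 6433 in knockout (0.79 ± 0.14, limma adjusted p = 0.0677). Ern1, the sensor IRE1, stood at 256, 248 and 236 against 403 and 373 (0.65 ± 0.17, limma adjusted p = 0.110). Both were higher in each knockout library than in every wild-type library. Without wild type 3, Atf4 passed (adjusted p = 0.0397). Xbp1 stood at 5933, 5777 and 6221 against 9777 and 6711 (0.44 ± 0.19, limma adjusted p = 0.225), and without knockout 1 the log2 fold change was 0.17 ± 0.18. Ddit3 stood at 716, 591 and 1105 against 783 and 1299 (0.38 ± 0.33, limma adjusted p = 0.512), with overlap. Trib3, a pseudokinase target of ATF4 and CHOP, had -0.67 ± 0.41. The degradation genes Edem1, Sel1l and Herpud1 had -0.34 ± 0.19, -0.13 ± 0.14 and 0.30 ± 0.18.

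Other transcripts moved with genotype in these 5 libraries. The immediate early genes, which answer within minutes to tissue handling as to other stimuli, were higher in knockout for 6 of 6, and 4 of them rose (Fos, Fosb, Junb and Atf3). Their summed level was 53744 to 90447 in wild type and 234070 to 304580 in knockout. Fos stood at 15973, 17327 and 12776 against 64836 and 79831 (2.24 ± 0.21, limma adjusted p = 0.0197). Endothelial markers were also higher for 6 of 6 with none called, summing to 1780 to 3388 against 13218 to 29534, and mesothelial markers were higher for 6 of 6 with none called. Adipocyte markers summed to 1379700 to 1541900 against 1274100 to 1441300, with 4 higher, 2 lower and none called. None of these markers was at 0 in every library. The part of handling and of other cells in the fall of Hspa1a and Hspa1b was not tested, and in bulk RNA fewer cells of a type and less RNA per cell cannot be told apart.

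The effect on the inducible genes differed between adipocytes and whole fat of the same age and diet. In Epi, Hspa1a stood at 101, 114 and 62.5 in wild type and at 115, 160 and 145 in knockout (0.62 ± 0.33, limma adjusted p = 0.612), and Hspa1b at 164, 210 and 150 against 170, 289 and 209 (0.33 ± 0.28). Neither is lower in knockout there. The difference between the tables in the genotype effect, Adipo minus Epi, was -4.49 ± 0.35 on the log2 scale for Hspa1a (limma adjusted p = 0.000706) and -5.25 ± 0.43 for Hspa1b (adjusted p = 0.000802). Bag3 also differed, by -0.84 ± 0.16 (adjusted p = 0.0329), but with same-numbered Epi and Adipo samples as pairs its adjusted p was 0.0747. These 3 of 40 genes compare with 0.0285% of 14033 genes called lower and 1.64% called higher. Before adjustment, p was under 0.05 for 7 lower genes (also Hspb1, Hspe1, Hsph1 and Hsp90aa1) and for 1 higher gene (Atf4, 0.64 ± 0.18), against 4.54% and 9.04% of all genes.

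Levels per length put these genes in context. As TPM, a level scaled for the length of the chosen transcript and the library total, Hspa1a and Hspa1b stood at 264 ± 22.8 and 300 ± 28.6 (SD, n = 3) in Adipo wild type, positions 10 and 8 in descending order among the 40 genes. In Adipo knockout they stood at 19.4 ± 4.15 and 11.3 ± 5.84 (n = 2), in positions 33 and 36. Elsewhere they were among the least abundant of the 40, at 1.46 ± 0.377 and 2.92 ± 0.410 in Epi wild type (positions 40 and 39), 2.28 ± 0.61 and 3.96 ± 1.5 in HFD (n = 4), 6.93 ± 7.46 and 16.6 ± 21.3 in CD (n = 3), and 0.885 ± 0.352 and 1.06 ± 0.308 in BA (n = 4). In CD the SD exceeded the mean, so the order of CD against Epi and HFD does not hold beyond the spread; the tables were also normalised separately.

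In whole fat after 12 weeks of diet no gene of the 40 passed. In the Epi table limma called 0 of 40 genes and 0% of all 17512 genes; edgeR called 0 of the 40 and DESeq2 called 2. Before adjustment 2 of 40 had p under 0.05, both lower, against 5.73% of all genes lower and 3.48% higher. These were 2 genes that clear misfolded glycoproteins from the ER. Edem1, a mannosidase-like lectin, stood at 8704, 10169 and 10926 in wild type and at 7464, 6434 and 7778 in knockout (-0.46 ± 0.14, limma adjusted p = 0.453). Sel1l, the adaptor of the HRD1 ligase, stood at 7541, 8678 and 8408 against 5954, 6842 and 6538 (-0.35 ± 0.12, limma adjusted p = 0.487). All knockout values of both lay below all wild-type values, and DESeq2 called both (adjusted p = 0.0276 and 0.0341). Non-overlap in this table was 2 of 40 lower and 3 higher (Hspa1a, Hsp90ab1 and Xbp1), against 9.15% and 7.30% of all genes.

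Xbp1, the factor that Ern1 activates by splicing, stood at 7381, 7793 and 7998 in Epi wild type and at 13373, 8298 and 9977 in knockout (0.42 ± 0.19, limma adjusted p = 0.556). Hsf1 stood at 886, 769 and 929 against 916, 1030 and 1379 (0.35 ± 0.18, limma adjusted p = 0.604), and Hsph1 at 1380, 1550 and 3622 against 2165, 2928 and 2976 (0.43 ± 0.37). The Hsf1 and Hsph1 groups overlapped. The main ER chaperones had fold changes near 0. Hspa5 stood at 22555, 23717 and 37903 against 23183, 24937 and 29611 (-0.08 ± 0.23), and Hsp90b1 at 18872, 18669 and 28296 against 19145, 22354 and 20099 (-0.07 ± 0.20). Wild type 3 was the highest library for 16 of the 40 genes, and without it Hspa5 had 0.16 ± 0.17. Atf4 stood at 5167, 4815 and 5589 against 6110, 5026 and 6255 (0.16 ± 0.13), and Ddit3 at 924, 654 and 1315 against 1379, 588 and 1191 (0.09 ± 0.38). The groups of both factors overlapped.

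In fat after 4 weeks of diet Cryab and Hspb1, both small heat shock proteins, fell in knockout, and none of the 40 genes rose. Hspb8, of the same family, had a log2 fold change of 0.06 ± 0.18. These 2 of 40 compare with 2.45% of all 13946 HFD genes that fell and 1.01% that rose. At unadjusted p under 0.05 there were 12 lower and 2 higher of the 40, against 14.5% and 6.23% of all genes, and 9 lower and 0 higher did not overlap, against 10% and 4.03%. The median was -0.13 for the 40 and -0.09 for all genes. Without wild type 1, 4 genes passed (also Dnajb11 and Edem1), while calls over all genes went from 3.46% to 8.44%. Without knockout 1, 3 or 4 Cryab alone passed, with 1.30%, 1.04% and 0.902% of all genes called.

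Cryab (ENSMUSG00000032060; chromosome 9, 50752907 to 50756543, plus strand, 3 exons) stood at 2516, 3376, 4111 and 4692 in HFD wild type and at 1286, 1679, 1546 and 1391 in knockout. Its means, 3674 ± 941 and 1476 ± 172 (SD, n = 4 and 4), differed 2.49-fold (log2 -1.28 ± 0.18, limma adjusted p = 0.00784). Hspb1 (ENSMUSG00000004951; chromosome 5, 135887919 to 135889563, plus strand, 3 exons) stood at 1112, 1074, 1088 and 1697 in wild type and at 617, 728, 614 and 617 in knockout (1.93-fold lower; log2 -0.92 ± 0.15, limma adjusted p = 0.0139). All 4 knockout libraries lay below all 4 wild-type libraries for both genes. Without knockout 1, 3 or 4 the adjusted p of Hspb1 was 0.0501, 0.0552 and 0.0595, at log2 fold changes of -0.90 each. Of its 100-base windows 56.3% stand in the pseudogene Hsp25-ps1, so its reads are uncertain. Both proteins are also abundant in muscle cells. Smooth muscle markers were lower in knockout for 6 of 6 and 1 fell, Des, from 717, 566, 646 and 707 to 461, 315, 352 and 317 (-0.88 ± 0.14, limma adjusted p = 0.0121). The mean log2 level of the smooth muscle markers was 10.27, 9.49, 8.82 and 8.75 in wild type 1 to 4. In knockout 1 to 4 it was 9.55, 8.29, 8.95 and 8.72. The part of smooth muscle in the fall was not tested. Adipocyte markers summed to 469380 to 739160 in wild type and 500230 to 606780 in knockout, 2 higher, 4 lower and none called.

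**Figure D3:**
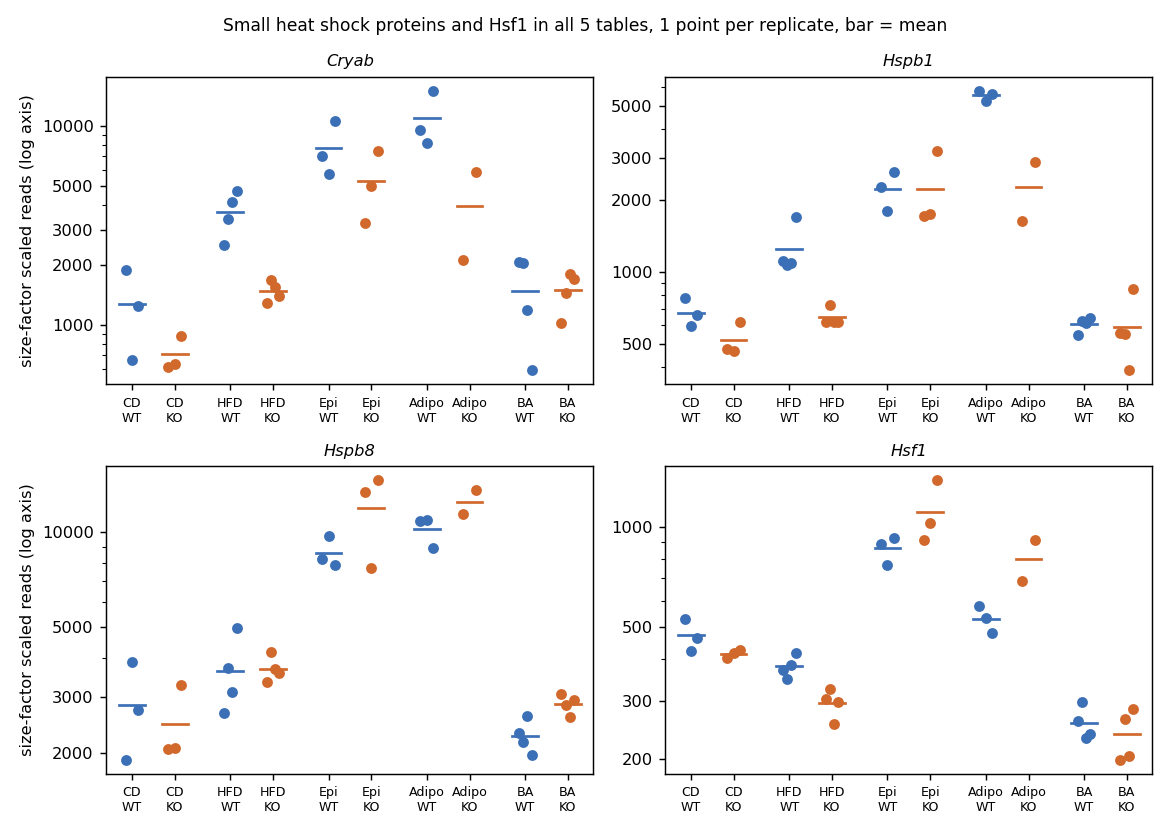
Normalised reads of Cryab, Hspb1, Hspb8 and Hsf1 on a log axis for each replicate in the 5 tables, wild type and knockout; tables were normalised separately. In HFD, Cryab spans 2516 to 4692 in wild type and 1286 to 1679 in knockout, while in BA its groups overlap. Its mean is also lower in knockout in CD, Epi and Adipo, where it did not pass.

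Among the other HFD genes, Hsf1 stood at 371, 350, 385 and 418 in wild type and at 303, 327, 256 and 298 in knockout (-0.37 ± 0.10, limma adjusted p = 0.0861), and Hsph1 at 519, 528, 445 and 714 against 403, 433, 350 and 399 (-0.46 ± 0.14, limma adjusted p = 0.114). Pdia6, a disulfide isomerase of the ER, stood at 3284, 2990, 3488 and 4044 against 2788, 2485, 2656 and 2655 (-0.38 ± 0.11, limma adjusted p = 0.0984). None of these 3 genes overlapped between groups. Hspa1a, which fell in adipocytes, stood at 52.0, 43.2, 35.3 and 77.6 against 48.2, 28.8, 47.5 and 42.5 (-0.28 ± 0.26), with overlap. Hspa5 stood at 7014, 7203, 6075 and 6648 against 6981, 5713, 7333 and 6437 (-0.03 ± 0.11), and Hsp90b1 at 5465, 5558, 5954 and 6849 against 6211, 4748, 5410 and 5378 (-0.13 ± 0.12). Both ER chaperones overlapped broadly. Of the 14 ER chaperones 12 were lower and 2 higher (Canx and Dnajb9), where 63.1% of all genes were lower, with a median of -0.15, and after TMM scaling 11 were lower with a median of -0.07. Wild type 4 was the highest of 8 libraries for 23 of the 40 genes.

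Xbp1 and Dnajb9, a BiP co-chaperone and XBP1 target, stood higher. Xbp1 stood at 2842, 2695, 3113 and 3501 in HFD wild type and at 3430, 4059, 3667 and 3854 in knockout (0.31 ± 0.11, limma adjusted p = 0.157); after TMM scaling it passed, at 0.40 ± 0.09 (adjusted p = 0.0442). Dnajb9 stood at 244, 297, 221 and 297 against 368, 287, 386 and 360 (0.41 ± 0.13, limma adjusted p = 0.132). For each gene 1 library kept the groups from separating, wild type 4 for Xbp1 and knockout 2 for Dnajb9. Atf4 stood at 1780, 1956, 2142 and 2972 against 2006, 2112, 2551 and 2118 (0.01 ± 0.16), and Ddit3 at 291, 324, 344 and 520 against 268, 448, 346 and 297 (-0.11 ± 0.21). The groups of both overlapped.

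On normal chow the ER chaperones were higher in knockout, but in 2 of 3 replicates only. All 14 had positive log2 fold changes in CD, from 0.46 (Dnajc3) to 1.41 (Sdf2l1) with a median of 0.95, where 61.7% of all genes were positive, and none passed. Limma called 0 of the 40 genes and 0% of all 15468 genes; edgeR called 0 of the 40 and DESeq2 called 2. At unadjusted p under 0.05 there were 10 of 40, all higher, against 7.23% of all genes higher and 2.38% lower, and 8 were higher without overlap and none lower, against 12.4% and 4.54%. The 10 became 4 higher and 1 lower with TMM scaling (4.61% and 4.73% of all genes), and 3 higher without wild type 1 (3.43%), without knockout 1 (2.35%), without knockout 2 (2.31%) and with both of these as 1 replicate (2.35%). All 14 stayed positive after TMM scaling (median 0.84), which moved the median of all genes from 0.11 to 0.00.

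Hspa5 stood at 3941, 4247 and 3413 in CD wild type and at 14950, 14607 and 3979 in knockout (1.31 ± 0.54, limma adjusted p = 0.518), and Hsp90b1 at 4642, 4433 and 3921 against 10921, 10813 and 4973 (0.95 ± 0.34, limma adjusted p = 0.516). Pdia6 stood at 2319, 2013 and 2038 against 8011, 8019 and 2328 (1.32 ± 0.50). Knockout 1 and 2 stood apart from the other 4 libraries for all 3 genes, and knockout 3 lay near wild type. Over the 14 ER chaperones knockout 1 and 2 were above every wild type for 14 and 14, with median ratios to the wild-type mean of 2.54 and 2.46. Knockout 3 was above for 4, within for 8 and below for 2 (Pdia4 and Sdf2l1), at a median ratio of 1.05. Without knockout 3, which leaves only the nearly alike knockout 1 and 2 in that group, 637 of 15537 genes (4.10%) and 8 of the 40 passed, among them Hspa5 (1.94 ± 0.19, adjusted p = 0.0132) and Hsp90b1 (1.33 ± 0.17, adjusted p = 0.0260). With knockout 1 and 2 counted as 1 replicate none of the 40 passed, and Hspa5 had 0.99 ± 0.58 and Hsp90b1 0.77 ± 0.39 (limma adjusted p = 0.968 for both). Without knockout 1 and 2, Hspa5 had 0.05 ± 0.34 and Hsp90b1 0.20 ± 0.34, and none of the 40 genes passed.

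The same 2 libraries held the most transcripts of epididymis, and wild type 2 held some. The mean log2 level of the 6 epididymis and testis markers was 9.90 and 9.68 in knockout 1 and 2, against 1.45 in knockout 3 and 1.99, 4.04 and 0.54 in wild type. Crisp1, a secreted epididymal protein, stood at 124190 and 112870 in knockout 1 and 2, 23.0 in knockout 3, and 41.0, 43705 and 3.18 in wild type. Epithelial markers stood at 10.12 and 10.18 in knockout 1 and 2, against 1.52 in knockout 3 and 4.07, 9.25 and 1.67 in wild type. Epididymal epithelium is a secretory tissue, and its part in the ER chaperone values was not tested. In Epi, knockout 2 and 3 also carried such markers (10.49 and 8.72, against at most 4.2 in the other 4), but in other proportions. Crisp1 stood there at 2102 and 796. Lcn8 stood there at 24007 and 8623, against 2.30 and 0.22 in CD knockout 1 and 2. Among the other Epi libraries, wild type 1 held the testis marker Prm1 at 10481, against 0.83 and 0 in wild type 2 and 3. Hspa5 had -0.08 ± 0.23 in Epi, and the part of these markers was not tested there either.

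**Figure D4:**
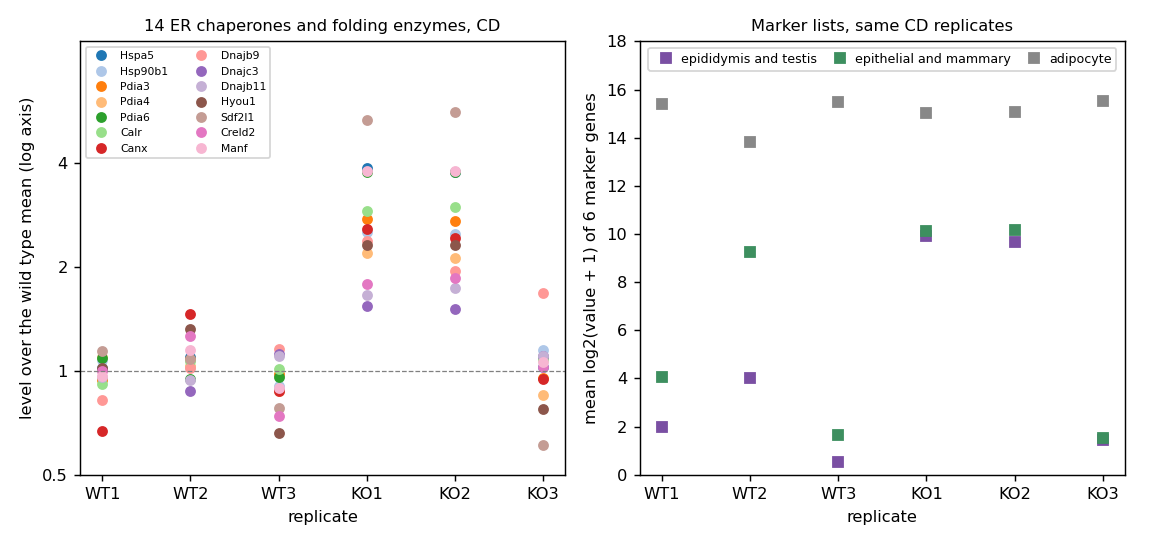
Left, level of each of the 14 ER chaperones over the wild-type mean on a log axis in the 3 CD knockout replicates and 3 wild-type replicates; right, mean log2(value + 1) of epididymis, epithelial and adipocyte markers per replicate. Knockout 1 and 2, with median chaperone ratios of 2.54 and 2.46, had epididymis markers at 9.90 and 9.68. Wild type 2 had these at 4.04 and epithelial markers at 9.25.

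The CD genes with the smallest p were those that knockout 3 shared. Dnajb9 stood at 216, 268 and 303 in wild type and at 623, 510 and 441 in knockout (1.00 ± 0.20, limma adjusted p = 0.505). The mitochondrial pair went with it: Hspd1 stood at 1927, 1528 and 2072 against 2657, 2538 and 3442 (0.64 ± 0.20, limma adjusted p = 0.505), and Hspe1 at 438, 372 and 653 against 725, 698 and 953 (0.72 ± 0.25, limma adjusted p = 0.505). All 3 were higher in every knockout than in every wild-type library, and knockout 3 was the highest for Hspd1 and Hspe1. Without knockout 1 and 2 they had 0.76 ± 0.32, 0.91 ± 0.33 and 1.01 ± 0.39, and did not pass. Reads of Hspd1 and Hspe1 may be shared with copies (26.9% and 20.4% of windows). Xbp1 stood at 3520, 2412 and 3684 against 5021, 5074 and 4287 (0.60 ± 0.22, limma adjusted p = 0.515), also without overlap.

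Cytosolic chaperones on chow had no common direction, with 9 of 15 higher and a median of 0.19. Hspa1a stood at 43.5, 260 and 62.6 in wild type and at 214, 230 and 33.2 in knockout (0.40 ± 0.98), and Hsph1 at 394, 753 and 254 against 355, 343 and 321 (-0.32 ± 0.39). The largest spread was in Hspa1b and Hspa1a, with within-group SDs of 1.52 and 1.46 on the log2 scale against a median of 0.357 over all genes. Hspa1a without knockout 1 and 2 had -1.40 ± 1.13. Atf4 stood at 2503, 2346 and 2771 against 2498, 2596 and 3631 (0.18 ± 0.19), and Ddit3 at 382, 234 and 435 against 268, 270 and 464 (-0.07 ± 0.33). Both overlapped between groups.

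None of the 40 genes passed a test of the difference in genotype effect between the diet tables. For the difference in genotype effect, HFD minus CD, limma called 0 of 40 genes and 0% of 13749, with 17 of 40 lower and none higher at unadjusted p under 0.05, against 14.1% and 3.25% of all genes. The 17 include Dnajb11, a BiP co-chaperone (-0.87 ± 0.21, limma adjusted p = 0.178), and Pdia6 (-1.70 ± 0.47). With TMM scaling 6 of 40 were lower at that level, against 6.90% of all genes, and the median of the 40 went from -0.55 to -0.35. With CD knockout 1 and 2 averaged to 1 replicate 9 genes were lower at that level, against 10.2% of all genes, and with both left out 5, against 9.28%. Diet is confounded with age, at 11 and 19 weeks, so that their parts cannot be told apart.

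In inguinal fat of the beta-adrenergic series no gene of the 40 passed. In the BA table limma called 0 of 40 genes, against 0.0323% of all 12379 genes called higher and 0% lower; edgeR called 0 of the 40 and DESeq2 called 1. Before adjustment 2 of 40 had p under 0.05, both higher, against 5.62% of all genes higher and 3.4% lower. Hsp90ab1, the constitutive Hsp90, stood at 13093, 12885, 12596 and 11954 in wild type and at 15214, 18870, 15437 and 17420 in knockout (0.40 ± 0.15, limma adjusted p = 0.430; DESeq2 adjusted p = 0.0219). It was the only one of the 40 without overlap, against 3.27% of all genes that were higher and 2.22% that were lower without overlap. Hspb8, the small heat shock partner of Bag3, stood at 2311, 2156, 2607 and 1962 against 3067, 2832, 2586 and 2942 (0.34 ± 0.13, limma adjusted p = 0.466).

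The other BA genes named here did not pass. Hsp90aa1 stood at 1134, 941, 1360 and 1454 in wild type and at 1614, 1575, 1536 and 1231 in knockout (0.30 ± 0.16), and Creld2, an ER stress-inducible secreted protein, at 186, 233, 180 and 166 against 238, 224, 196 and 267 (0.28 ± 0.14). Hsph1 stood at 1000, 952, 1189 and 785 against 739, 1342, 1183 and 1548 (0.26 ± 0.22). All 3 overlapped. Hspa1a was near the floor of the table, at 26.5, 13.4, 15.9 and 16.0 against 13.3, 9.27, 7.81 and 19.9 (-0.52 ± 0.32). Hspa5 stood at 3776, 3051, 3668 and 3276 against 3788, 3438, 3379 and 3806 (0.07 ± 0.13), and Hsp90b1 at 3249, 2771, 2744 and 2935 against 3353, 3344, 3202 and 3608 (0.21 ± 0.12). The 2 chaperones overlapped, Hsp90b1 through wild type 1 and knockout 3. Xbp1 stood at 2273, 1785, 1320 and 1046 against 1823, 1588, 1720 and 2042 (0.21 ± 0.22). Atf4 stood at 1957, 1660, 1914 and 1333 against 1605, 1724, 1146 and 1884 (-0.12 ± 0.19), and Ddit3 at 296, 296, 214 and 181 against 321, 236, 215 and 346 (0.18 ± 0.21). No factor separated the groups.

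Cryab, which fell in HFD, stood in BA at 2075, 2029, 1189 and 588 in wild type and at 1021, 1446, 1805 and 1705 in knockout (0.16 ± 0.37). Its mean was lower in knockout in CD and Epi, as in Adipo, without passing. As TPM it went from 208 ± 98.9 to 90.4 ± 13.4 in CD (SD, n = 3 and 3). In Epi it went from 388 ± 140 to 250 ± 111 (n = 3 and 3). For the difference in genotype effect, BA minus HFD, limma called 0 of 40 genes, against 0.339% of 12080 higher and 0.0414% lower. Of the 40 genes 10 had unadjusted p under 0.05, all higher in BA, against 10.1% of all genes higher and 3.46% lower, among them Cryab (1.44 ± 0.45, limma adjusted p = 0.181) and Hspb1 (0.82 ± 0.27, limma adjusted p = 0.199). Epi minus HFD gave 0 of 40 and 0% of 13942, with 5 higher and 1 lower at unadjusted p under 0.05 against 10.5% and 6.66%. Of those, Hspb1 differed by 0.88 ± 0.31 and Hsf1 by 0.71 ± 0.20. A fall of Cryab or Hspb1 in HFD is therefore not shown to differ from the other depot or time.

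**Figure D5:**
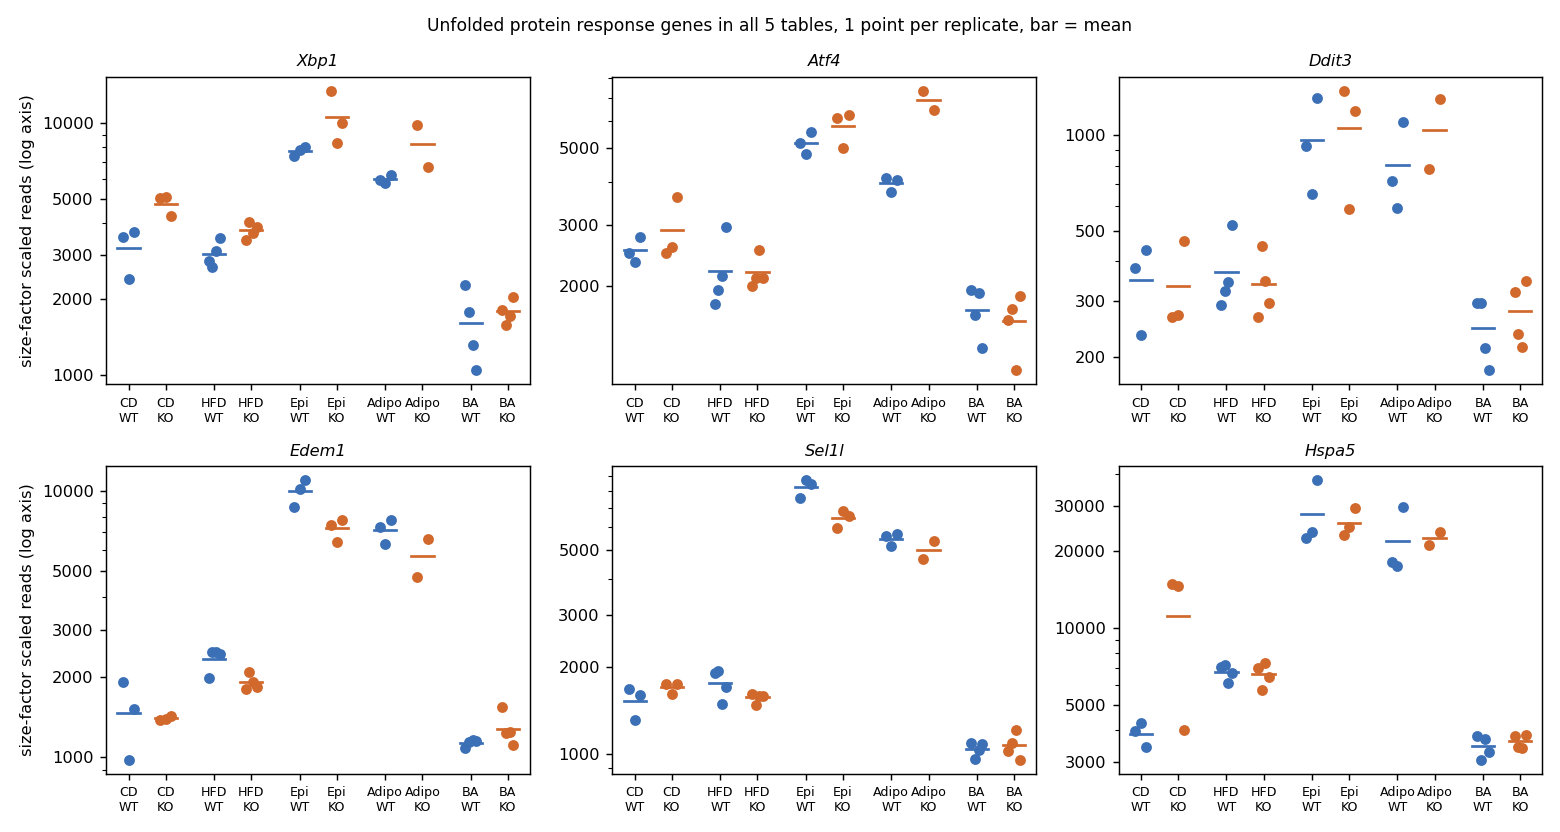
Normalised reads of Xbp1, Atf4, Ddit3, Edem1, Sel1l and Hspa5 on a log axis for each replicate in the 5 tables, wild type and knockout; tables were normalised separately. Xbp1 sits higher in knockout without overlap in CD, Epi and Adipo, as do 12.4%, 7.3% and 20.8% of all genes. Hspa5 separates only 2 CD knockout replicates, at 14950 and 14607.

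Xbp1 (chromosome 11, 5520659 to 5525893, plus strand) had a positive log2 fold change in all 5 tables, 0.60 on chow, 0.31 in HFD, 0.42 and 0.44 in Epi and Adipo, and 0.21 in BA, and passed in none. Its groups did not overlap in CD, Epi and Adipo, where 12.4%, 7.3% and 20.8% of all genes were higher without overlap. Of all CD genes 61.7% had a positive log2 fold change. The values count total Xbp1 transcript, and the spliced form was not analysed here. Its partner Ern1 was 1.00 ± 0.70 in CD, 0.19 ± 0.15 in HFD, 0.28 ± 0.32 in Epi and -0.09 ± 0.15 in BA, beside the adipocyte value given above. Atf6 stayed within -0.13 to 0.07.

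Other genes of these pathways were read from 3 lists. Of 40 further cytosolic co-chaperones and heat shock genes, 39 were measured in HFD, where 0 rose and 1 fell, Hspb2, a muscle small heat shock gene, from 79.7, 93.7, 90.0 and 113.9 to 36.2, 40.6, 49.7 and 39.9 (-1.16 ± 0.16, limma adjusted p = 0.00661). In all, 32 of the 39 were lower, with a median of -0.17. Of all HFD genes 2.45% fell and 63.1% were lower. In Adipo 29 of 39 were lower, against 53.3% of all genes, and none passed. Dnaja4, an Hsp40, stood there at 3409, 1672 and 1631 against 589 and 624 (-1.79 ± 0.34, limma adjusted p = 0.0824). In CD 27 of 39 were higher, against 61.7% of all genes. In Epi 19 of 39 and in BA 28 of 38 were higher. None was called in CD, Epi or BA. The medians were -0.009 in Epi and 0.070 in BA, against -0.029 and 0.006 for all genes. Of smallest p in CD were Hspb7 and Cacybp, which went opposite ways. Hspb7 stood at 710, 575 and 252 in wild type and at 88.8, 77.6 and 51.6 in knockout (-2.71 ± 0.44, limma adjusted p = 0.505). Cacybp had 0.57 ± 0.12 (limma adjusted p = 0.505).

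Of 42 genes of ER folding, translocation and degradation, 38 were higher in CD, against 61.7% of all genes, with none called. The translocon genes Ssr3 (0.57 ± 0.15) and Sec61b (0.50 ± 0.13) had the smallest p. In HFD 35 of 42 were lower, against 63.1% of all genes, and 1 fell, against 2.45%. It was Fkbp14, a collagen-folding prolyl isomerase, which went from 337, 374, 329 and 438 to 262, 225, 276 and 273 (-0.51 ± 0.12, limma adjusted p = 0.0487). In Adipo 28 of 41 were lower, against 53.3% of all genes, with none called. Serpinh1, the collagen chaperone, stood there at 33489, 29346 and 53501 against 18246 and 19524 (-0.99 ± 0.28, limma adjusted p = 0.124), and in BA at 10583, 8855, 13554 and 6905 against 18819, 16502, 18803 and 17292 (0.88 ± 0.21, limma adjusted p = 0.182). Neither table's groups overlapped for it. In Epi 25 of 42 were lower, with Erlec1, a lectin of the degradation pathway, at -0.48 ± 0.13. In BA 22 of 41 were higher, and none was called in either table. The medians were -0.034 in Epi and 0.016 in BA, against -0.029 and 0.006 for all genes.

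Of 36 ATF4 targets and integrated stress genes, 2 of 35 rose in Adipo and none fell, against 0.546% and 0.0922% of all genes. Atf3 stood at 1987, 1550 and 1531 in wild type and at 18006 and 27805 in knockout (3.74 ± 0.23, limma adjusted p = 0.0071), and Ppp1r15a (GADD34), which restarts translation after stress, at 1188, 1171 and 1321 against 4294 and 5134 (1.94 ± 0.14, limma adjusted p = 0.0117). Both separate the groups fully. Atf3 is also one of the immediate early genes above. The list as a whole had 22 of 35 lower, against 53.3% of all genes, with a median of -0.16. In HFD, Ppp1r15a went the other way and fell, from 336, 247, 248 and 399 to 169, 194, 184 and 198 (-0.69 ± 0.16, limma adjusted p = 0.0492). Of the list 24 of 34 were lower there and 1 fell, against 63.1% and 2.45% of all genes. None passed in CD, Epi and BA, where 21 of 35, 16 of 36 and 19 of 34 were higher. Of all CD genes 61.7% were higher. The medians were -0.076 in Epi and 0.064 in BA, against -0.029 and 0.006 for all genes. In CD, Mthfd2, a mitochondrial folate enzyme, stood at 102, 270 and 137 against 1958, 1969 and 268 (2.69 ± 0.86, limma adjusted p = 0.505), again high in knockout 1 and 2 alone.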

How the data were processed

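Poly(A) RNA was sequenced from stranded libraries, per the labels' protocols. What the authors deposited is a signal for each Ensembl transcript, read counts scaled by a size factor per library, here called normalised reads. Tools named in the submitters' processing notes are STAR 2.4.0k, HTSeq 0.5.3, DESeq 1.8.3, bcl2fastq 2.17 and SAMtools, with the build GRCm38.p4. The sources used here do not say whether strand was used in counting, so reads of overlapping antisense genes cannot be told apart.

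Of 100 samples 99 were used. In Adipo 1 column matched no sample and was not used, and the third knockout sample was not analysed here. Dividing by the smallest step gave whole reads for 100% of values (within 0.01 of a read), and for 96 libraries the whole numbers served as recovered reads. One transcript per gene was kept, that with the highest mean among those of the gene's own type in GENCODE M21, because a read can be listed under several isoforms. Transcripts without a gene were 698 of 97669 and held 0.321% of the values. In CD, HFD and BA the 4 libraries of a replicate differed by about the sampling noise (chi-square per degree of freedom 1.04 to 1.10) and were averaged.

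Each table was tested alone with limma 3.58.1 in R 4.3.3, using trend and robust moderation. The values were log2(value + 1), genes with a mean under 10 were left out, and Benjamini-Hochberg adjustment over all genes was applied at 0.05. This scale understates the change of low genes. Differences between tables were interaction terms. Epi and Adipo samples with the same number shared their deviations from the group means (5 correlations from 0.162 to 0.699), so a fit with them as pairs was added. The recovered reads were also tested with edgeR 4.0.16 and DESeq2 1.42.0. Tested on simulated data with 200 changed genes, limma recovered 90% of genes changed by 2 on the log2 scale in HFD (13946 genes), 67% in Adipo (14105), 16% in CD (15468), 36% in Epi (17512) and 95% in BA (12379).

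The members and gene lists were chosen with earlier results of these data known. Named with every replicate's value were members that passed and, where fewer than 4 passed, those of smallest p up to 4. Hspa1a, Hsph1, Hspa5, Hsp90b1, Xbp1, Atf4 and Ddit3 were named so in every table. Of each pathway list the genes that passed were named so. Where none passed, only some of the genes of smallest p are given, and not all of them with replicate values. Other genes given with values were chosen after their values were seen. Alternatives were pseudocounts of 0.5 and 5, a minimum of 50 or none, limma without trend and robust moderation, TMM scaling, all transcripts of a gene summed, the replicate number as a block, and each replicate left out. Leaving out CD knockout 1 and 2, or HFD wild type 1 and knockout 1, averaging the former for HFD minus CD, and pairing Epi with Adipo samples were chosen after the data were seen.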

Additional observations from a re-analysis of the deposited data

Results flagged for a closer look

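Among 44 groups of 4 replicates checked for a single value far from the rest, 2 met the criterion, both for Hspb1 in HFD; chance flags about 5% of groups. Hspb1 in wild type 4 stood at 1696.5 normalised reads, with the other 3 wild-type libraries at 1074 to 1112.4 (gap over range 0.938, critical value 0.829). In knockout 2 it stood at 727.55, with the other 3 at 613.81 to 616.67 (0.975). Every knockout value is still below every wild-type value.

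The genotype effect differed between isolated adipocytes and whole fat after 12 weeks of diet for 3 genes. The difference, Adipo minus Epi on the log2 scale, was -4.49 ± 0.35 for Hspa1a, -5.25 ± 0.43 for Hspa1b and -0.84 ± 0.16 for Bag3 (SE, limma interaction term, adjusted p = 0.000706, 0.000802 and 0.0329). With same-numbered Epi and Adipo samples as pairs, Bag3 had -0.79 ± 0.16 and did not pass (limma adjusted p = 0.0747), while Hspa1a and Hspa1b passed (0.00822 and 0.0102).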

How the results depend on the processing

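The count of genes called among the 40 moved with the test in every table. DESeq2 called 2 on chow (Dnajb9 and Hspd1, limma 0), 6 in HFD (limma 2), 8 in Adipo (limma 2, both among the 8), 2 in Epi (Edem1 and Sel1l, limma 0) and 1 in BA (limma 0). DESeq2 then called 5.99%, 10.4%, 12.7%, 3.03% and 2.18% of all genes in these tables, and made 35 to 111 false calls per table in simulated data. With TMM scaling and with edgeR, HFD had 3, the additional gene being Xbp1. In Adipo there were 0 without trend or robust moderation, 6 without a filter and 3 with a minimum of 50. The shares of all genes called under these Adipo settings are not given here. The counts are therefore not read as particular to the 40 genes. Leaving out 1 replicate at a time gave 0 to 8 in CD (8 without knockout replicate 3), 1 to 4 in HFD (4 without wild type 1; 1 without knockout 1, 3 or 4), 0 in Epi and BA, and 0 to 5 in Adipo (0 without wild type 1, 1 without wild type 2, 5 without wild type 3). For Adipo minus Epi the 3 calls became 2 without moderation and 2 without a filter, where the shares of all genes are not given either. The causes of these shifts were not tested.

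With the replicate number as a block the counts were 2 in HFD, 7 in Adipo (9.88% of all genes) and 0 in each of CD, Epi and BA. Adipo has no knockout 3, so the block also takes wild type 3 out of the contrast, which alone gave 5. The labels tie wild type and knockout samples by a number only. The correlations of their deviations ran from -0.58 to 0.58 with mixed signs. Deviations cancel within a group, so these correlations cannot settle whether the samples are paired. Pairing Epi with Adipo samples left 2 calls, without Bag3, and changed no other call.

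No called gene changed direction. Cryab in HFD passed in 19 of 19 alternatives (log2 -1.45 to -1.15, adjusted p up to 0.0373) and Hspb1 in 16 of 19 (-0.98 to -0.76, up to 0.0595). In Adipo, Hspa1a passed in 13 of 15 (-4.09 to -3.64, up to 0.0625) and Hspa1b in 12 of 15 (-5.48 to -4.36, up to 0.0837). For 48 named gene-by-table values that did not pass, 786 of 827 alternative values lay within 1 SE, 17 lay beyond it and 24 passed in the same direction. TMM scaling moved the median of all genes in HFD minus CD from -0.18 to 0.02, and changed the HFD calls over all genes from 141 higher and 341 lower to 217 and 310. The spread between replicates limits what can pass: in simulated CD data (15468 genes) limma recovered 0% of genes changed by 1 on the log2 scale, and in simulated Adipo data (14105 genes) 15%.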

Other observations

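Over 33 samples and 11823 genes, the genes whose log2 deviations from their group means were most like those of Hspa1b were Pxylp1 (Pearson r = 0.916), Sgpp1 (0.915), Hspa1a (0.913), Ndrg4 (0.892) and Sh3rf1 (0.891). Among the ER genes Ern1 had 0.768 and Canx 0.729. The samples share tables, so this likeness is a description only. In CD the within-group SD of Hspa1b was 1.52 on the log2 scale, against 0.33 to 0.48 in the other tables. The CD libraries, with the nearly alike knockout 1 and 2 among them, therefore weigh most in this likeness. Hspa1a was highest there in wild type 2 and knockout 1 and 2. The same libraries were highest in epithelial markers (9.25, 10.12 and 10.18) and in Crisp1. The part of such tissue in this likeness was not tested. Outside CD the most variable of the 40 genes was Cryab in Adipo (0.70), Dnajb9 in BA (0.66), Ddit3 in Epi (0.59) and Hspa1a in HFD (0.41), against medians over all genes of 0.250, 0.242, 0.307 and 0.217.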
